A study of Oryza sativa with 12 samples.

Results

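The genes described here are those whose array signal was higher in each of 3 wild-type (WT) arrays than in any of 9 mutant arrays of rice inflorescence meristems, with the widest gap between the lowest WT array and the highest mutant array. Each gene was represented by the probe with its highest mean, among probes that the platform annotation pairs with 1 gene, and the gap, called the score below, is in log2 units of signal. The 100 highest of 15140 genes were taken. OEE3, OsPSY1, OsNAC6, PSAH and BZIP52 were among them and were left out by name, together with auxin families and other named genes that did not reach the first 100, which left 95 genes. The genes were thus selected on these same signals. Because the score is itself a difference between WT and the mutants, the levels in WT against the mutants are given as a description, and the number of genes called in those comparisons shows only how the rule selects. Differences among the mutant lines were tested.

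RNA came from inflorescence meristems dissected from plants grown outdoors in pots, with 3 arrays for each of 4 genotypes. These were WT, 1 line with fon2-3 alone, 1 line with asp1-10 alone, and fon2-3 asp1-fe, called the double mutant below. The double mutant holds a different asp1 allele from the asp1-10 line, so the allele and fon2-3 cannot be told apart as sources of a difference between those lines. The labels do not say whether the arrays of a genotype came from separate plants, nor how many meristems were pooled, and they name no cultivar. The p-values below therefore measure only the spread between these samples. Probe medians differed little among the arrays, and any pair of arrays correlated at 0.962 to 0.986 (Pearson, all probes). Array 3 of asp1-10 had the lowest mean correlation with its own genotype, at 0.975.

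FON2 encodes a small secreted peptide related to CLAVATA3 of Arabidopsis, which signals between cells of the shoot meristem and keeps the number of stem cells in check. ASP1 encodes a corepressor related to TOPLESS, a protein that is recruited by DNA-binding partners and holds their target genes off. In the rice panicle an inflorescence meristem forms branch meristems and bract primordia before it makes spikelets, so a dissected sample holds the meristem together with young lateral organs. In such bulk samples fewer cells of a type and less RNA per cell cannot be told apart.

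Of the 95 genes, 7 carried a name and the others only a locus number. Those 7 were HAP3I, RRF, OsRSH3, MHZ4, MYBS1, OsPP2C62 and CSLA9, a share of 7.37% against 11.5% of all 15140 genes. The gene table lists 91 of the 95 as protein coding (95.8%, against 94.6% of all genes) and 4 as long non-coding RNAs, namely LOC4326474, LOC4334263, LOC9267143 and LOC9266069. No function is stated here for a gene known only by its number. The WT means ran from 4.14 to 11.62, with a median of 8.06 beside 6.48 for all genes, a comparison of different probes that does not rank transcripts. A signal below 5.55, the median of all deposited values, was not shown to exceed background. This applied to the WT mean of 10 of the 95 genes and to all 3 mutant means of 22, whose folds can be too small.

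Scores ran from 1.90 for LOC4349417 to 0.29 for CSLA9, with a median of 0.40. Just inside the limit lay LOC4346323 at 0.2933, LOC4325332 at 0.2931 and CSLA9 at 0.2903, and just outside it LOC4339921 at 0.2887, LOC4333236 at 0.2853 and LOC4350084 at 0.2844. The score fell without a step at this point, so the limit of 100 is a convention. All WT arrays lay above all mutant arrays for 655 of the 15140 genes (4.33%), from which the 100 were drawn, and the opposite order was found for 1111 genes (7.34%).

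**Figure D1:**
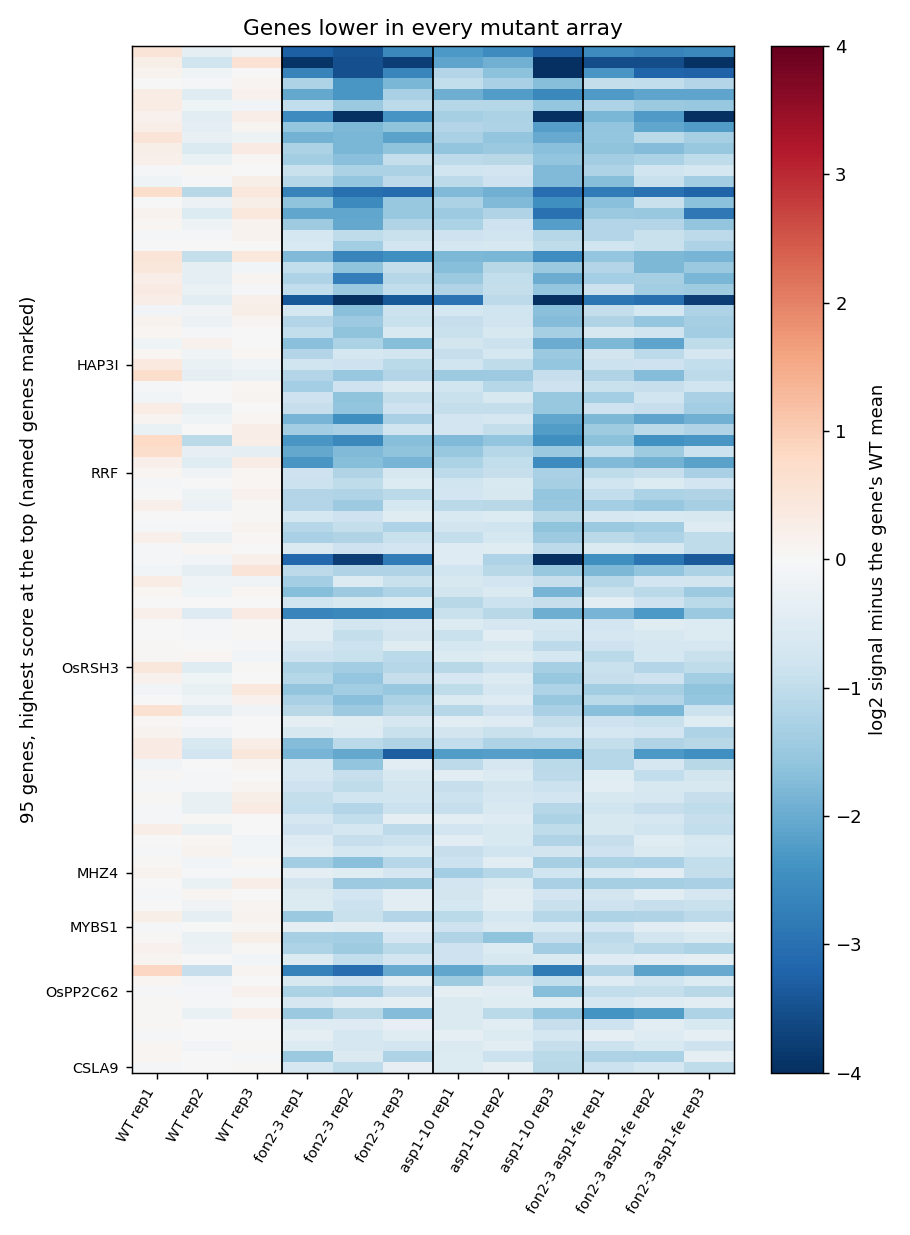
Signal of the 95 genes on each of the 12 arrays, as log2 signal minus the gene's WT mean, with genes ordered by score and the 7 named genes marked. The colour scale ends at 4 log2 units on either side. The 9 mutant columns are blue throughout, and the columns of fon2-3 replicate 2 and asp1-10 replicate 3 are darker than the other columns of their genotypes for many genes.

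The median difference from WT over the 95 genes on the log2 scale was -1.15 for fon2-3, -1.05 for asp1-10 and -1.09 for the double mutant. Over all genes these medians were 0.02, 0.01 and 0.01. Single genes ranged from -3.74 to -0.41 in fon2-3, from -2.74 to -0.52 in asp1-10 and from -3.67 to -0.43 in the double mutant. The mean lay over 1 log2 unit below WT in all 3 lines for 44 of the 95 genes, and for 80 of all 15140 genes (0.528%). For the 20 highest scores the fold of WT over fon2-3 ran from 1.83 to 13.3 with a median of 3.58, and for the other 75 genes from 1.33 to 12.2 with a median of 2.14. Median folds were thus larger among the highest scores, but the score measures the gap between arrays and does not follow size alone. LOC4332506 had a 12.2-fold higher mean in WT than in fon2-3 and ranked 25.

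At an adjusted p below 0.05 in limma, 83 of the 95 genes were called lower in fon2-3, 63 in asp1-10 and 78 in the double mutant. Over all genes 1.81%, 1.03% and 1.64% were called lower, and 3.91%, 1.4% and 2.89% were called higher. The rule used these contrasts, so the members' counts describe how it selects. They also changed when single arrays were left out. The counts over all genes in these settings are not given here. The changes therefore do not show whether the loss of calls was particular to the 95 genes. In fon2-3, omitting fon2-3 replicate 2 left 0 calls, omitting WT replicate 1 left 1, and omitting WT replicate 3 left 16. Omitting fon2-3 replicate 3, WT replicate 2 or fon2-3 replicate 1 left 47, 52 and 53. In asp1-10, omitting WT replicate 1 left 8 calls, WT replicate 3 left 10 and asp1-10 replicate 3 left 11, while asp1-10 replicate 1 and WT replicate 2 left 24 and 36. In the double mutant, omitting its replicate 2 left 0 calls, WT replicate 1 left 12, WT replicate 3 left 14 and its replicate 1 left 22, while its replicate 3 and WT replicate 2 left 36 and 46. For asp1-10 the count was also 0 when only the WT and asp1-10 arrays were fitted, 27 with the replicate number as a block and 38 with a log2 difference of at least 1, and for the double mutant it was 50 with that size limit. With all arrays, 56 of the 95 genes were called in all 3 lines, 23 in 2 lines, 10 in 1 line and 6 in 0 lines. Over all 15140 genes, those called lower in 3, 2, 1 and 0 lines numbered 65, 123, 237 and 14715.

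The mean lay over 2 log2 units below WT in all 3 lines for 6 genes of the whole table, and all 6 belong to the 95. LOC4349417, the gene of highest score, read 8.78, 7.86 and 8.12 in the WT arrays. It read 4.98, 4.81 and 5.66 in fon2-3, 5.96, 5.74 and 4.97 in asp1-10 and 5.73, 5.58 and 5.68 in the double mutant. The mutant lines overlapped each other, and all lay well below WT: the WT mean of 8.25 (SD 0.475, n = 3 arrays, as for every SD below) was 8.59-fold that of fon2-3 (mean 5.15, SD 0.452), 6.47-fold that of asp1-10 (5.56, SD 0.518) and 6.01-fold that of the double mutant (5.66, SD 0.0743). The fon2-3 mean lies below 5.55, so that fold can be too small.

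LOC4341305 had the largest measured difference of the 95 genes between WT and fon2-3. It read 8.58, 7.55 and 8.93 in WT. The fon2-3 arrays read 4.42, 4.84 and 4.60, those of asp1-10 6.25, 6.44 and 4.21, and those of the double mutant 4.82, 4.82 and 4.41. Replicate 3 of asp1-10 therefore lay with the lines carrying fon2-3, while replicates 1 and 2 lay between those lines and WT. The WT signal was 13.3-fold that of fon2-3, 6.6-fold that of asp1-10 and 12.7-fold that of the double mutant, and the folds over fon2-3 and the double mutant can be too small because their means lie below 5.55.

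LOC4324627 showed the same arrangement from a tighter WT group, at 9.22, 8.91 and 9.10. It read 6.41, 5.56 and 6.48 in fon2-3, 7.91, 7.43 and 5.02 in asp1-10, and 6.76, 5.87 and 5.83 in the double mutant. The folds of WT over the 3 lines were 7.62, 4.91 and 7.6 in that order. The SD within asp1-10, 1.55, was the largest of the 4 genotypes for this gene, against 0.155 in WT.

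LOC4347807 was uneven within every mutant line. It read 11.76, 11.12 and 11.86 in WT. It read 9.06, 6.28 and 9.22 in fon2-3, 10.26, 10.32 and 7.23 in asp1-10 and 9.76, 9.31 and 6.76 in the double mutant. One array of each mutant line lay over 2 log2 units below the others, and the SDs were 1.65, 1.77 and 1.62 against 0.404 in WT. The mean folds were 10.5, 4.95 and 7.84, but they average over this split.

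LOC4337946 and LOC4332506 complete this group. LOC4337946 read 7.34, 5.53 and 7.07 in WT, 3.97, 3.62 and 3.57 in fon2-3, 4.87, 4.74 and 3.61 in asp1-10 and 3.85, 3.67 and 3.45 in the double mutant. Its mutant signals all lay below 5.55, as did WT replicate 2, so the folds of 7.61, 4.73 and 7.98 can be too small. LOC4332506 read 9.48, 8.76 and 9.42 in WT, 5.83, 5.17 and 5.82 in fon2-3, 6.27, 8.19 and 4.99 in asp1-10 and 6.34, 6.21 and 5.45 in the double mutant. Replicate 2 of asp1-10 came within 0.57 log2 units of the lowest WT array, which set its score, and the folds were 12.2, 6.67 and 9.33.

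**Figure D2:**
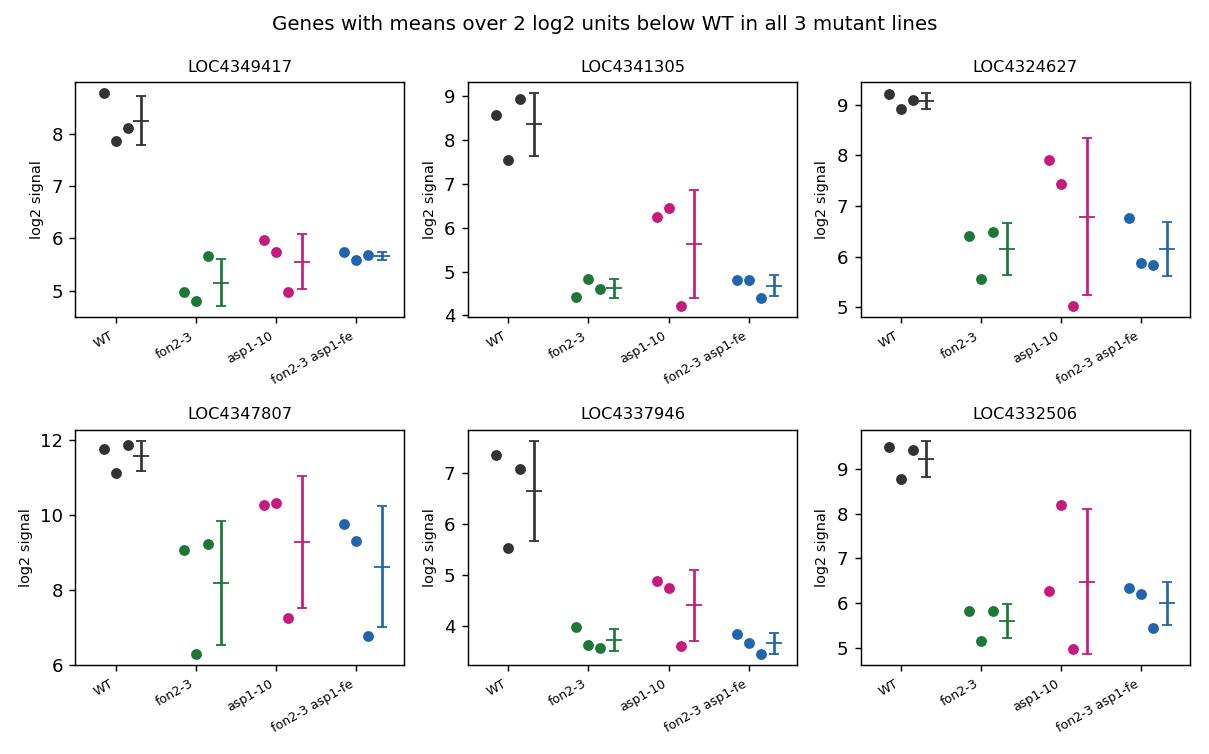
Log2 signal of the 6 genes with means over 2 log2 units below WT in all 3 mutant lines. Points are single arrays in replicate order and bars give the mean and SD of 3 arrays per genotype, on an axis that does not start at 0. The 3 WT arrays lie above all mutant arrays in each panel, and for 5 of the 6 genes asp1-10 replicate 3 lies over 1 log2 unit below both other asp1-10 arrays.

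Among the 20 highest scores, other genes differed less and had little spread in WT. LOC4348921 was even in WT, at 11.59, 11.66 and 11.62, and read from 9.87 to 10.91 in the mutant arrays, with folds of 2.2, 2.14 and 1.89. LOC4337215 read 6.65, 6.66 and 6.69 in WT and between 5.29 and 6.05 in the mutants, with folds of 1.89, 1.72 and 1.95. These differences are small, and the SDs in WT were 0.0335 and 0.019. By the rule, a small difference can reach a high score only where the WT arrays lie close together. The mutant arrays spread more, with an SD of 0.572 in asp1-10 for LOC4348921 and 0.403 in fon2-3 for LOC4337215.

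LOC4351693 was lowest in asp1-10 among the 3 lines: WT read 8.49, 7.71 and 8.35, and the folds were 3.68 over fon2-3, 4.78 over asp1-10 and 4.45 over the double mutant. LOC4324548, LOC4349121 and LOC4351264 had folds of WT over fon2-3 of 4.88, 3.7 and 3.7. LOC4327905, LOC4332908, LOC4331725, LOC4333220 and LOC4332833 had folds between 2.31 and 3.91 in every line. LOC4344351 lay below 5.55 throughout, with WT arrays at 4.38, 3.58 and 4.47 and all mutant arrays between 2.33 and 2.88. LOC4327761 and LOC9267504 also had WT means below 5.55, at 5.18 and 5.17, so the levels of these 3 genes were not shown to exceed background in any genotype.

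The 7 named genes play parts in transcription, plastid biology, hormone synthesis, signalling and the cell wall. HAP3I is an NF-YB subunit, a histone-fold protein of the complexes that bind CCAAT boxes in promoters. It read 5.85, 5.19 and 5.32 in WT, 4.66, 4.63 and 4.38 in fon2-3, 4.65, 4.43 and 3.92 in asp1-10 and 4.59, 4.62 and 4.46 in the double mutant. The 3 lines overlapped each other below WT, with folds of 1.86, 2.18 and 1.86. All 4 genotype means of HAP3I, that of WT at 5.45 included, lay below 5.55 and were not shown to exceed background. MYBS1 is a rice MYB factor that binds the TATCCA element of alpha-amylase promoters and activates them when sugar is short. It read 5.58, 5.60 and 5.66 in WT and between 4.78 and 5.26 in the mutants, with folds of 1.33, 1.60 and 1.43 that can be too small because all 3 mutant means lie below 5.55.

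RRF and OsRSH3 belong to processes of bacterial origin. RRF bears the name of the ribosome recycling factor, which takes ribosomes off the message after translation has ended. It read 8.15, 7.93 and 8.17 in WT, 7.26, 6.89 and 7.44 in fon2-3, 7.04, 7.15 and 6.78 in asp1-10, and 7.06, 7.16 and 6.79 in the double mutant, with folds of 1.85, 2.13 and 2.12. OsRSH3 is a RelA/SpoT homologue, of the enzyme family that makes or breaks down the alarmone ppGpp, which acts in plastids in plants. In WT it read 11.04, 10.12 and 10.64, beside 9.32, 9.21 and 9.46 in fon2-3, 9.49, 9.74 and 9.27 in asp1-10 and 9.70, 9.43 and 9.58 in the double mutant. The WT arrays of OsRSH3 spread more (SD 0.463) than those of any mutant line (SD 0.127 to 0.237), and its folds were 2.41, 2.14 and 2.04.

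MHZ4 acts in the synthesis of neoxanthin, a carotenoid precursor of abscisic acid, and is known in rice from the ethylene response of roots. It read 8.58, 8.38 and 8.39 in WT, 8.05, 7.96 and 7.78 in fon2-3, 7.09, 7.30 and 7.66 in asp1-10 and 7.84, 7.99 and 7.50 in the double mutant. Here asp1-10 was the lowest line, with no overlap with fon2-3, and the folds were 1.43, 2.14 and 1.59. OsPP2C62 is a type 2C protein phosphatase, and it read 9.87, 9.88 and 10.13 in WT, 8.68, 8.58 and 9.04 in fon2-3, 9.57, 9.52 and 8.25 in asp1-10 and 8.97, 9.02 and 8.84 in the double mutant. Replicates 1 and 2 of asp1-10 lay nearest to WT and replicate 3 was the lowest of all arrays, so its mean fold of 1.8 in asp1-10 stands for no single array. CSLA9 belongs to the cellulose synthase-like A family, whose members in Arabidopsis make mannan of the cell wall. It read 10.32, 10.35 and 10.41 in WT and from 9.26 to 10.03 in the mutants, with folds of 1.61, 1.61 and 1.81.

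**Figure D3:**
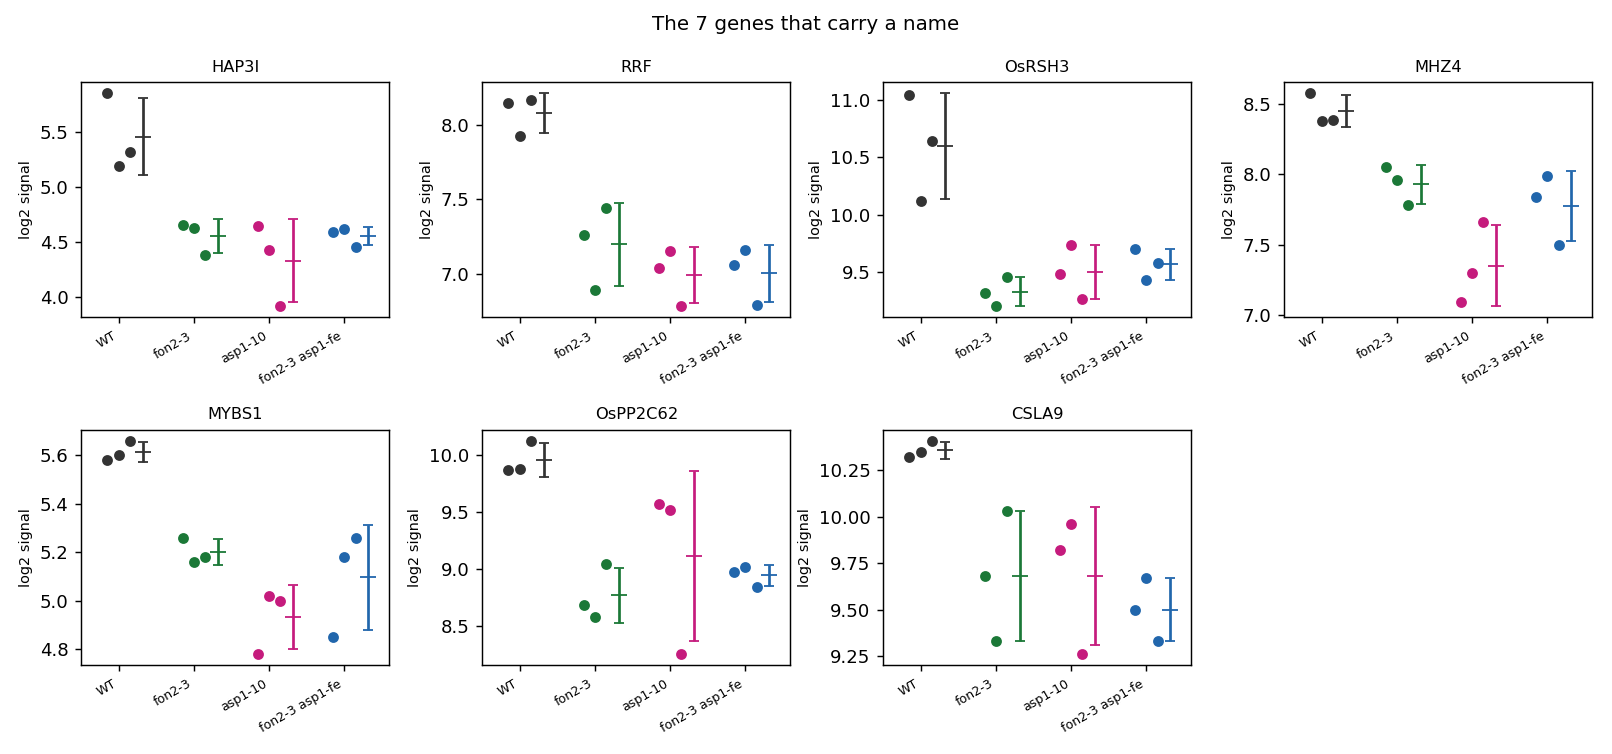
Log2 signal of the 7 named genes on each array, with points in replicate order and bars for the mean and SD of 3 arrays per genotype, on axes that do not start at 0. MHZ4 is lowest in asp1-10, and the asp1-10 arrays of OsPP2C62 and CSLA9 spread more widely than their WT arrays.

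Relatives of the named genes were mostly not called. These groups of relatives were taken by symbol after the members' values were known. The rule selected the named genes on the contrasts with WT and not their relatives, so a difference in calls follows from the rule. Some named genes missed the threshold as well. In limma CSLA9 missed it in fon2-3 and asp1-10 (adjusted p = 0.076 and 0.103). OsPP2C62 missed it in asp1-10 and the double mutant (0.144 and 0.0713), and MHZ4 and MYBS1 in fon2-3 (0.093 and 0.0764). Of the 8 measured NF-Y or HAP genes, the others besides HAP3I did not pass the test in any line, and their differences from WT reached 0.52 for HAP5D in fon2-3 (adjusted p = 0.068 in limma) and -0.49 for HAP3H in asp1-10 (adjusted p = 0.187). OsRSH1 differed from WT by -0.09, 0.09 and -0.08, and OsRSH2 by 0.12, 0.21 and 0.14, with adjusted p from 0.465 to 0.71. Of the carotenoid genes, PDS, the desaturase after phytoene, differed by 0.01, -0.17 and -0.09 and OsPSY2 and OsPSY3, phytoene synthases, did not pass either, while OsPSY1, left out of the 95 by name, had a score of 0.55.

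Among 32 measured phosphatases of type 2C, 4 had all WT arrays above all mutant arrays, an order found for 4.33% of all genes. They include OsPP2C62, which the rule selected for this order. The others were OsPP2C39, OsPP2C10 and OsPP2C05, with scores of 0.05, 0.03 and 0.01. OsPP2C39 fell by 0.94 on the log2 scale in fon2-3 (SE 0.239, adjusted p = 0.0476 in limma) and OsPP2C05 fell by 0.52 in the double mutant (SE 0.117, adjusted p = 0.0373), while OsPP2C41 rose by 0.68 in asp1-10 (SE 0.149, adjusted p = 0.0433). The median difference of the phosphatases from WT was -0.09, 0.05 and -0.07. CSLA1, CSLA4, CSLA5 and CSLA7 did not pass in any line, and CSLA1 read 0.60 above WT in fon2-3 (adjusted p = 0.063).

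The 4 long non-coding RNAs had narrow WT groups, with SDs from 0.0302 to 0.116. LOC4326474 read 7.71, 7.86 and 7.94 in WT and was 2.18-fold, 2.03-fold and 2.21-fold over the 3 lines. LOC4334263, LOC9267143 and LOC9266069 had folds between 1.56 and 1.68 in every line. Their similar folds are partly set by the rule, since a fold much smaller could not have reached the score limit.

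For 4 of the 95 genes a second probe was available that the rule had not used. LOC4334263 had a second probe with a WT mean of 6.34 (SD 0.0929) against 5.59, 5.22 and 5.60 in fon2-3, asp1-10 and the double mutant, again with all WT arrays above all mutant arrays (score 0.27). The second probe of LOC9272094 kept that order too (score 0.16), at 5.44 in WT against 4.75, 4.74 and 4.88, all below 5.55 and so not shown to exceed background. The second probe of LOC9266069 did not, since asp1-10 replicate 1 read 5.29 and WT replicate 1 read 4.86. The second probe of LOC4331725 read 5.54 in WT, 5.58 in fon2-3, 5.43 in asp1-10 and 5.09 in the double mutant, which did not match the difference of its chosen probe. That probe lay near 5.55 throughout.

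Comparing the mutant lines with one another asks whether the 95 genes were lowered to different degrees. The rule used the highest mutant array, so it limits how high any line can lie, but it does not set which line is lower. At an adjusted p below 0.05, 0 of the 95 genes differed between the double mutant and fon2-3, 0 between the double mutant and asp1-10, and 0 between asp1-10 and fon2-3, by limma on all probes. The background was as low: 3 of 15140 genes were called in each of these comparisons (0.0198%). At an unadjusted p below 0.05 there were 6 of the 95 in each comparison (6.32%). They were 6 higher and 0 lower in the double mutant than in fon2-3 (all genes 2.31% and 2.92%), 3 higher and 3 lower than in asp1-10 (5.41% and 4.27%), and 4 higher and 2 lower in asp1-10 than in fon2-3 (4.19% and 6.82%). The smallest adjusted p among the 95 was 0.815, 0.545 and 0.239.

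A missed threshold does not show that the lines were alike. The 95% interval of the difference lay within 1 log2 unit on either side of 0 for 76 of the 95 genes in both comparisons with the double mutant and for 73 between asp1-10 and fon2-3. These intervals reached a median of 0.49 to 0.495 log2 units to either side of the difference. The median difference over the 95 genes was 0.03 for the double mutant minus fon2-3 (all genes -0.02), -0.05 for the double mutant minus asp1-10 (all genes 0.01) and 0.06 for asp1-10 minus fon2-3 (all genes -0.02). Single genes ranged from -0.52 to 0.80, from -0.96 to 0.45 and from -0.58 to 1.29.

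**Figure D4:**
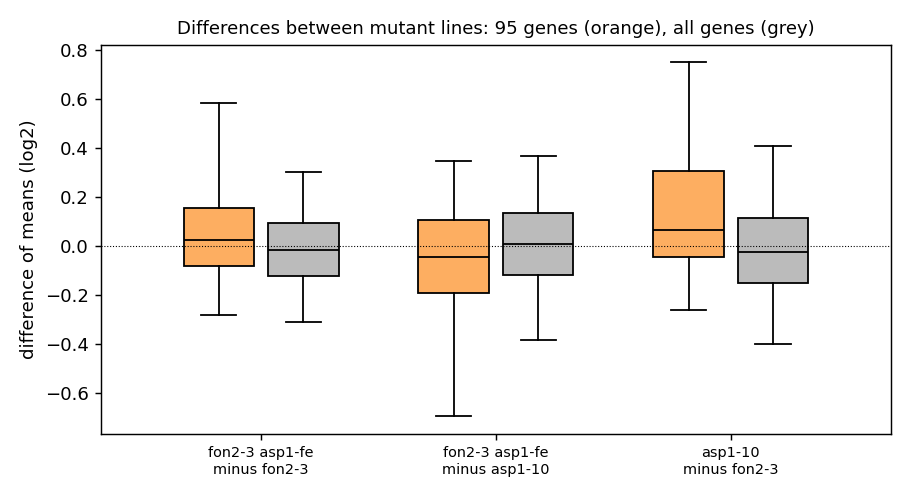
Difference of genotype means on the log2 scale for the 95 genes (orange) and all 15140 genes (grey) in the 3 comparisons between mutant lines. Boxes span the 25% to 75% quantiles with the median as a line, and whiskers reach the 5% and 95% quantiles. All medians lie within 0.1 of 0. The orange whiskers reach further up than the grey ones in the double mutant minus fon2-3 (0.58 against 0.30) and in asp1-10 minus fon2-3 (0.75 against 0.41), and further down in the double mutant minus asp1-10 (-0.69 against -0.38).

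The genes with the smallest p between lines are given as values, with LOC4350881 added because it passed when 1 array was left out. LOC4333827 read 10.02, 9.31 and 10.14 in WT, 7.17, 7.24 and 7.28 in fon2-3, 8.92, 8.70 and 7.88 in asp1-10 and 7.97, 7.54 and 8.33 in the double mutant. The fon2-3 arrays lay below all others, and asp1-10 minus fon2-3 was 1.27 (SE 0.292, 95% interval 0.63 to 1.91, adjusted p = 0.239). Without asp1-10 replicate 3 the difference was 1.58 (SE 0.264) and passed, with an adjusted p of 0.0371, in a comparison where 107 genes (0.707%) then passed. LOC4350881, at 9.63, 9.58 and 9.90 in WT, read 6.56, 5.94 and 6.90 in fon2-3, 9.18, 8.47 and 5.60 in asp1-10 and 7.25, 6.78 and 6.33 in the double mutant. Its asp1-10 minus fon2-3 was 1.29 (SE 0.7, adjusted p = 0.61) and its double mutant minus asp1-10 -0.96 (adjusted p = 0.807). Without asp1-10 replicate 3, asp1-10 minus fon2-3 was 2.36 (adjusted p = 0.0218) and the double mutant minus asp1-10 was -2.04 (SE 0.327, adjusted p = 0.0488), the latter among 39 genes (0.258%). The calls for both genes thus depend on leaving out the array that was lowest of its genotype.

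MHZ4 differed the other way: asp1-10 minus fon2-3 was -0.58 (SE 0.168, 95% interval -0.95 to -0.21, adjusted p = 0.342), and the double mutant minus asp1-10 was 0.43 (adjusted p = 0.582). LOC4342076 read 4.79, 4.96 and 4.84 in fon2-3, 5.35, 5.68 and 5.13 in asp1-10 and 4.96, 5.04 and 4.75 in the double mutant. The asp1-10 arrays of LOC4342076 lay above both other lines, but its mutant means all lie below 5.55 and were not shown to exceed background. Its difference of asp1-10 from fon2-3 was 0.53 (adjusted p = 0.442), and that of the double mutant from asp1-10 was -0.47 (adjusted p = 0.6). LOC4333117 was lowest in the double mutant, at 5.66, 5.82 and 6.83 against 7.48, 6.98 and 6.52 in asp1-10, a difference of -0.89 (95% interval -1.59 to -0.18, adjusted p = 0.545).

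LOC4337962 stood nearest to WT in the double mutant. It read 9.03, 8.95 and 9.15 in WT, 7.79, 6.71 and 7.21 in fon2-3, 8.07, 7.75 and 7.35 in asp1-10, and 8.08, 8.05 and 7.88 in the double mutant. The double mutant minus fon2-3 was 0.77 (SE 0.244, 95% interval 0.23 to 1.3, adjusted p = 0.815), with no overlap between the arrays of these lines. LOC4327905 and LOC4328676 differed in the same direction, by 0.64 and 0.73 (adjusted p = 0.897 for both). The mutant means of LOC4328676 all lie below 5.55 and were not shown to exceed background. Over the 95 genes the line with the mean nearest to WT was asp1-10 for 42, the double mutant for 29 and fon2-3 for 24, and the line farthest from WT was fon2-3 for 42, the double mutant for 31 and asp1-10 for 22. The shares over all genes are not given here, and the rule used the highest mutant array. These counts are therefore a description and do not show an order particular to the 95 genes.

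In WT, fon2-3 and asp1-10, many of the 95 genes moved together between arrays of 1 genotype. Their median level was 8.12, 7.64 and 8.10 in the WT arrays, 6.58, 6.28 and 6.81 in fon2-3, 6.71, 6.90 and 6.27 in asp1-10 and 6.47, 6.57 and 6.42 in the double mutant. Replicate 2 was the lowest WT array for 67 of them (70.5%, against 33.6% of all genes). Replicate 2 was the lowest fon2-3 array for 64 (67.4%, against 30%), and replicate 3 the lowest asp1-10 array for 77 (81.1%, against 34.3%). In the double mutant the lowest array was spread over replicates 1, 2 and 3, with 30, 28 and 37 genes. The highest mutant array, which sets the score, was asp1-10 replicate 2 for 32 genes and fon2-3 replicate 3 for 17. The rule selected the 95 genes on these same array values, and genes that move together are not separate observations. These shares, and the spreads given next, are therefore a description.

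Replicate 3 of asp1-10 lay over 1 log2 unit below both other asp1-10 arrays for 13 of the 95 genes, while 1.05% of all genes did so. WT replicate 2 did so among the WT arrays for 6 genes (0.159% of all genes): LOC4341305, LOC4337946, LOC4324548, LOC4342616, LOC4339023 and LOC4338925. The median SD of the 95 genes was 0.177 in WT, 0.25 in fon2-3, 0.344 in asp1-10 and 0.199 in the double mutant, against 0.14 to 0.162 over all genes. The asp1-10 arrays had the largest SD of the 4 genotypes for 45 of the 95 genes (30.1% of all genes).

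Some markers of tissues that the dissected samples could hold differed between genotypes as well. The green bract or leaf list (6 measured genes) had a mean level of 5.12 to 5.51 in the WT arrays, 4.45 to 4.68 in fon2-3, 4.35 to 5.03 in asp1-10 and 4.41 to 4.78 in the double mutant. Of its 6 genes 2 fell in fon2-3, 1 in asp1-10 and 2 in the double mutant. These were PSAH and OEE3, which had themselves reached the 100 highest scores and were left out by name, so they are not independent of the rule. The mean level of the list includes both genes, so its difference between genotypes is not independent of the rule either. CAB1R, CAB2R, PSAG and PSB28 passed in 0 of the lines, and PSAG read 0.38 above WT in asp1-10 (adjusted p = 0.656). The chlorophyll-binding protein genes CAB1R and CAB2R were below 5.55. The meristem list of 5 genes, the defining markers of the labelled tissue, had a higher mean level in the mutants, from 6.07 to 6.70 in WT, 6.87 to 7.49 in fon2-3, 7.17 to 7.30 in asp1-10 and 7.04 to 7.53 in the double mutant. In it OSH15 and OSH71, class I KNOX homeobox genes of the meristem, rose in all 3 lines (adjusted p from 0.0243 to 0.0436 in limma) and OSH1 rose in the double mutant (adjusted p = 0.0288). FON1, the CLAVATA1-like receptor kinase, read 0.75, 0.87 and 0.67 above WT (SE 0.385) but passed in 0 of the lines (adjusted p from 0.255 to 0.356). WOX4, which encodes a homeodomain factor related to WUSCHEL, differed from WT by -0.26, -0.13 and -0.08 and did not pass either. The part of a change in tissue makeup in the lower levels of the 95 genes was not tested.

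Of the other lists, the low oxygen list (PDC1, NSHB2 and GAPC3) varied most between arrays of 1 genotype. Its mean level was 6.17, 9.88 and 9.71 in WT, 7.83, 6.06 and 7.04 in fon2-3, 10.4, 9.85 and 5.76 in asp1-10 and 8.08, 5.97 and 5.91 in the double mutant. It was lowest in fon2-3 replicate 2 and asp1-10 replicate 3, as the median of the 95 genes was. In the double mutant both were lowest in replicate 3, though close to another array (5.91 beside 5.97, and 6.42 beside 6.47). In WT the list was lowest in replicate 1. There the median of the 95 genes was lowest in replicate 2, at 7.64, beside 8.12 and 8.10 in replicates 1 and 3. None of its 3 genes passed the test in a line (0 of 3 in each), and its part in the array differences was not tested. The anther list (3 genes) had 0 calls, but MADS3 and MADS58 lay below 5.55 and were not shown to exceed background. Of the 2 measured vascular genes CESA4 rose in all 3 lines, while CESA9, also below 5.55, did not pass. Of the 2 measured genes of dividing cells CYCB1-1 fell in asp1-10 (adjusted p = 0.0396).

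**Figure D5:**
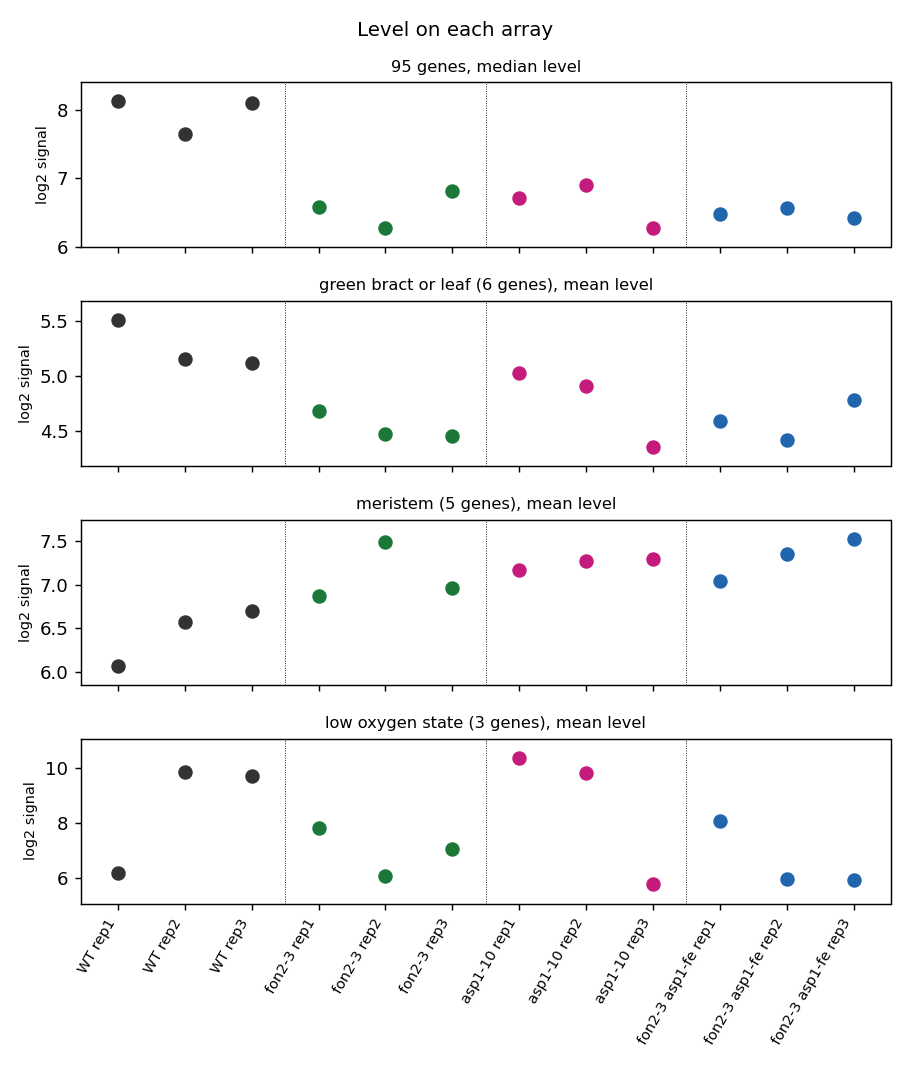
Level on each of the 12 arrays, in log2 signal on axes that do not start at 0, as the median of the 95 genes and as the mean of the green bract or leaf, meristem and low oxygen lists. Points are single arrays coloured by genotype. The WT arrays lie above all mutant arrays in the first and second panels and below them in the third, while the low oxygen list splits the arrays of WT and asp1-10.

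Gene order was taken from the RefSeq rice gene table, in which all 95 genes have a place. Of 91 neighbouring genes with a probe that are not among the 95, 4 (4.4%) had all WT arrays above all mutant arrays, beside 4.33% of all genes. The median difference of the neighbours from WT was -0.03, -0.03 and -0.05. There was 1 pair of adjacent members, LOC4347806 and LOC4347807. LOC4347806 read 7.35, 6.93 and 6.93 in WT and between 5.70 and 6.52 in the mutants, with folds of 1.9, 1.71 and 1.85, and did not share the uneven mutant arrays of LOC4347807.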

How the data were processed

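Signals of 54922 probes on 12 one-colour arrays were deposited by the authors as log2 values (base 2 is assumed from their range). They were made with Affymetrix Expression Console 1.3, per the submitters' processing notes. The sources used here do not give background correction, normalization between arrays or summarisation. Of the probes, 15829 had 1 listed gene, for 15140 genes. No genome build was used, and no positions or sequences are given.

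Each probe was modelled by its 4 genotype means in limma 3.58.1 (R 4.3.3, lmFit and eBayes), with 8 residual and 3.22 prior degrees of freedom. Tests were two-sided, adjusted over all probes by Benjamini-Hochberg, with a threshold of 0.05, and "rose" or "fell" refers to it. The fit was tested on simulated data. With 3 arrays in each group an exact permutation test has a smallest p of 0.1, so it was not used. The number of arrays limits the precision.

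The 95 genes, the marker lists and the tests were chosen with earlier results of these data known. Genes are named if they are among the 20 highest scores, carry a name, have the smallest p between mutant lines or lie at the limit of the rule. Genes named for other features, and the relatives of the named genes, were chosen after their values were seen. Naming by functional class was planned but could not be applied with the tables used here. Of the listed markers RBCS, CESA7, CYCB2-1, CDKB2-1 and ADH1 had no match. Alternatives covered normalization, centring, dim probes, groups in the fit, variance prior, array weights, replicate block, size threshold, probe per gene, duplicate probes and each array left out.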

Additional observations from a re-analysis of the deposited data

How the results depend on the processing

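Apart from single arrays left out, 83 recomputed values stayed within 1.5 times the count or within the spread between replicates, and 4 did not. The 4 were counts of the 95 genes called lower than WT. For asp1-10 the count of 63 became 0 when only the 2 groups compared were fitted, 27 with the replicate number as a block and 38 with a log2 difference of at least 1. For the double mutant the count of 78 became 50 with that size limit. The cause of the first was not tested; the size limit only removes small differences. With 1 array left out, the count lower than WT ran from 0 to 90 in fon2-3, from 8 to 58 in asp1-10 and from 0 to 89 in the double mutant. Counts between lines ran from 0 to 0 for the double mutant against fon2-3, from 0 to 1 against asp1-10 and from 0 to 2 for asp1-10 against fon2-3. The medians ran from -0.0491 to 0.0688, from -0.2032 to 0.0662 and from -0.0261 to 0.2487 in the same order, so each median changed sign, by less than the spread between replicates. Genes with all WT arrays above all mutant arrays numbered 669 to 1196, the most without WT replicate 2, and the rule kept 53 (without WT replicate 2) to 94 (without asp1-10 replicate 3) of the 95. The labels do not say whether samples of the same replicate number share anything else. Their deviations correlated from -0.182 to 0.106, and those of different numbers from -0.191 to 0.197. Deviations within a genotype are not independent of each other, so these correlations cannot show whether a batch was shared. Without detection values, signals near the median of all values have no stated limit.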

Other observations

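Probes without a listed gene showed the same order of arrays. Of 38653 such probes, 1385 (3.58%) had all WT arrays above all mutant arrays, and 176 (0.455%) had a score at least as high as that of the gene ranked 100. They were not identified as genes here.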
